A study of Mus musculus with 6 samples.

Results

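Macrophage and leukocyte genes were followed in RNA of isolated mouse glomeruli, the filtering capillary tufts of the kidney, built from endothelium, mesangium and podocytes. The set held 32 genes chosen by symbol, all found among the 27179 features of the deposited table: 6 pan-leukocyte genes, 9 genes of mononuclear phagocytes, 3 adaptor and Fc receptor genes, the 3 C1q chains, 4 MHC class II genes, the growth factor gene Csf1, 3 T cell genes, 1 B cell gene and 2 granulocyte genes. Of these, 28 had a mean of at least 10 normalised counts over the 6 libraries and entered the test, with 13946 genes in all. The other 4, Cd3e, Cd4, Cd8a and Ms4a1, were too low.

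The 6 libraries came from male mice aged 9 weeks on a C57BL/6 mixed strain, described as mildly proteinuric, whose glomeruli were collected after perfusion with magnetic beads. Libraries KO-1 to KO-3 (Parva-fl/fl*hNPHS2Cre) carried floxed alleles of Parva, which encodes the adhesion protein alpha-parvin, and a Cre driven by the human podocin promoter, which acts in podocytes. Libraries WT-1 to WT-3 (Parva-fl/fl) carried the same floxed alleles without Cre, and the 6 libraries included no group with Cre alone. Whether each library was made from 1 animal or from a pool is not stated in the labels. Leukocytes are not a target of this Cre, so the comparison asks how their transcripts in the glomerular preparation differ when Parva is deleted in podocytes. Parva itself, in normalised counts and in the order of the replicate numbers as below, was at 6585, 7520 and 7890 in WT but at 2288, 2338 and 1942 in KO.

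Leukocytes are a minor cell type of the healthy glomerulus. Resident mononuclear phagocytes, a family that includes macrophages and dendritic cells, depend on CSF1 or IL34 acting on the receptor CSF1R. They display peptides on MHC class II molecules, whose transcription is switched on by the coactivator CIITA, and macrophages secrete C1q, the recognition molecule of the classical complement pathway. In these bulk libraries fewer cells of a type and less RNA per cell cannot be told apart.

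Whole reads recovered from the table numbered 11886828 to 20552984 per library, and 10 genes counted almost wholly in a single library (at least 30 times the next) took 17.4% to 32.4% of them in the WT libraries and KO-1 but 0.239% and 0.241% in KO-3 and KO-2. Libraries stood apart in ways that touch the genes described here. KO-3 held the highest level of most leukocyte genes. Summed proximal tubule markers (20 genes) ranged from 121921 to 272323 normalised counts in WT and from 307544 to 469806 in KO. Summed markers of glomerular endothelium (11 genes) ranged from 60716 to 74618 in WT and from 40976 to 50673 in KO, and those of mesangium (9 genes) from 43994 to 56133 and from 29124 to 36214. The part of these shifts in the results below was not tested.

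Of the 28 genes of the set tested, 2 fell in KO (Mrc1 and Csf1), 0 rose and 26 did not pass limma's adjusted p of 0.05. Csf1 was in the set as a growth factor gene, not as a marker of a leukocyte type. The 26 genes other than Mrc1 and Csf1 had a median log2 fold change of 0.35. Over all genes tested, 22.1% passed, 13.5% as higher and 8.58% as lower. At an unadjusted p under 0.05 the count was 2 in limma (39.9% of all genes), 5 in edgeR (39.7% of all genes) and 6 in DESeq2 (37.9% of all genes). After adjustment edgeR called the same count of 2 (20.4% of all genes) and DESeq2 3 (27.4% of all genes), the additional one being H2-Aa, as higher (log2 change 1.54, DESeq2 adjusted p = 0.0176). The median log2 fold change of the 28 was 0.34, against -0.0064 for all genes tested, and 23 of the 28 had a higher mean log2 level in KO. Leaving out KO-3 moved the median to -0.018 and the count of calls to 0. Over all genes, 3085 passed, and 0 to 4 passed in limma without WT-2, WT-3, KO-2 or KO-3, a limit that applies to every call given here.

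**Figure D1:**
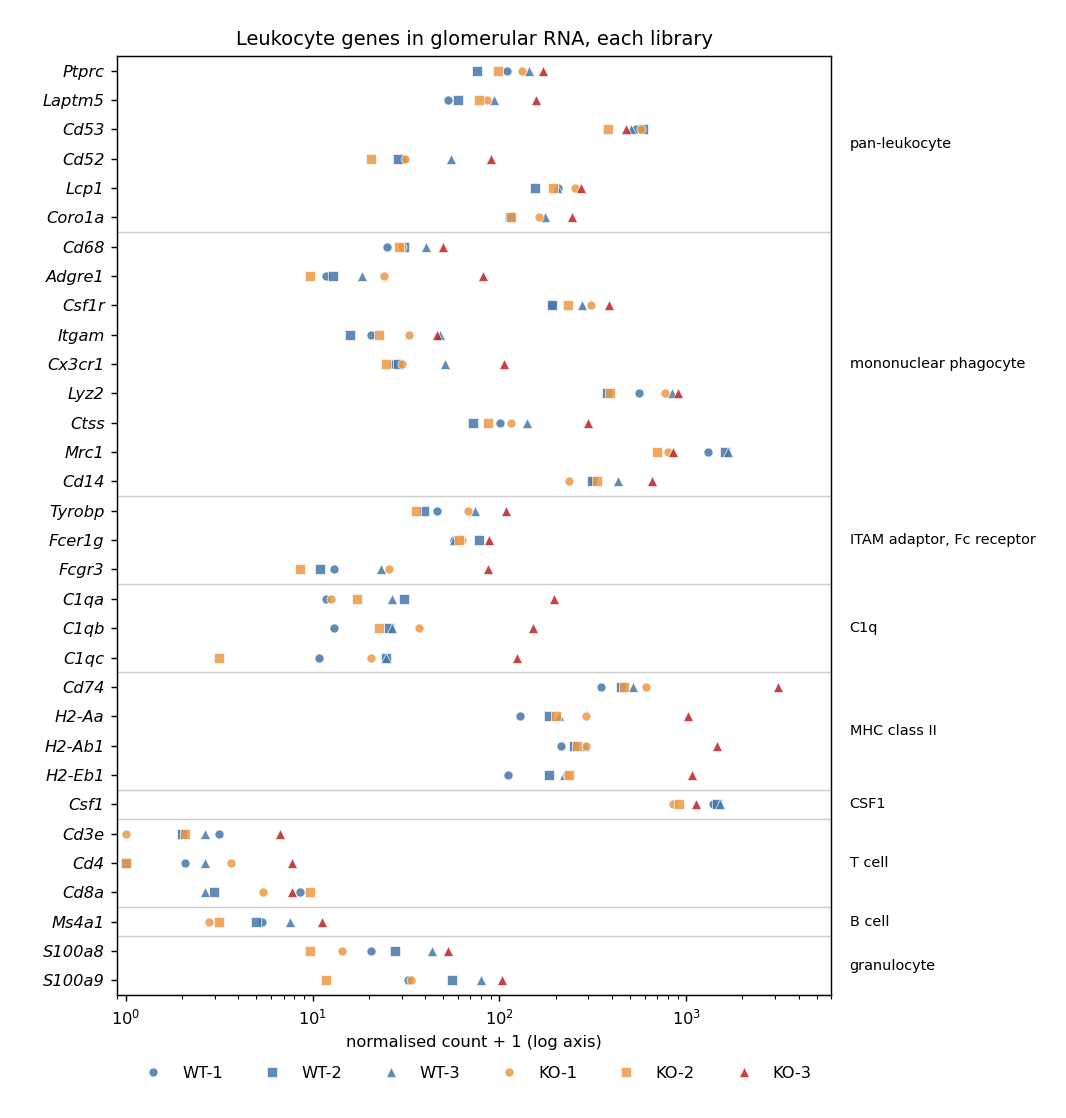
Normalised counts + 1 on a log axis for the 32 leukocyte genes, 1 point per library (blue WT, orange KO-1 and KO-2, red KO-3), grouped by role. The red points of MHC class II and C1q lie apart from the other 5 libraries, Mrc1 and Csf1 separate the genotypes, with KO to the left, and the T and B cell genes lie at the bottom of the scale.

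Most leukocyte genes shared an order of libraries within each genotype. KO-3 was the highest of the 6 libraries for 24 of the 28 genes, where 18.2% of all genes tested had their highest value in that library. Among the WT libraries, WT-3 was highest for 24 of 28, against 29.7% of all genes. Among the KO libraries, KO-2 was lowest for 24 of 28, against 27.6% of all genes. In 11 of the 28 genes KO-3 was at least 2-fold above each other library on the log2(normalised count + 1) scale, a gap present in 0.875% of all genes (122 genes). These 11 were the 4 MHC class II genes, the 3 C1q genes, Adgre1, Fcgr3, Ctss and Cx3cr1. The ranges of KO and WT were separate in 3 of the 28 genes, 1 higher and 2 lower in KO, against 45.1% of all genes (23.2% higher and 21.9% lower).

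**Figure D2:**
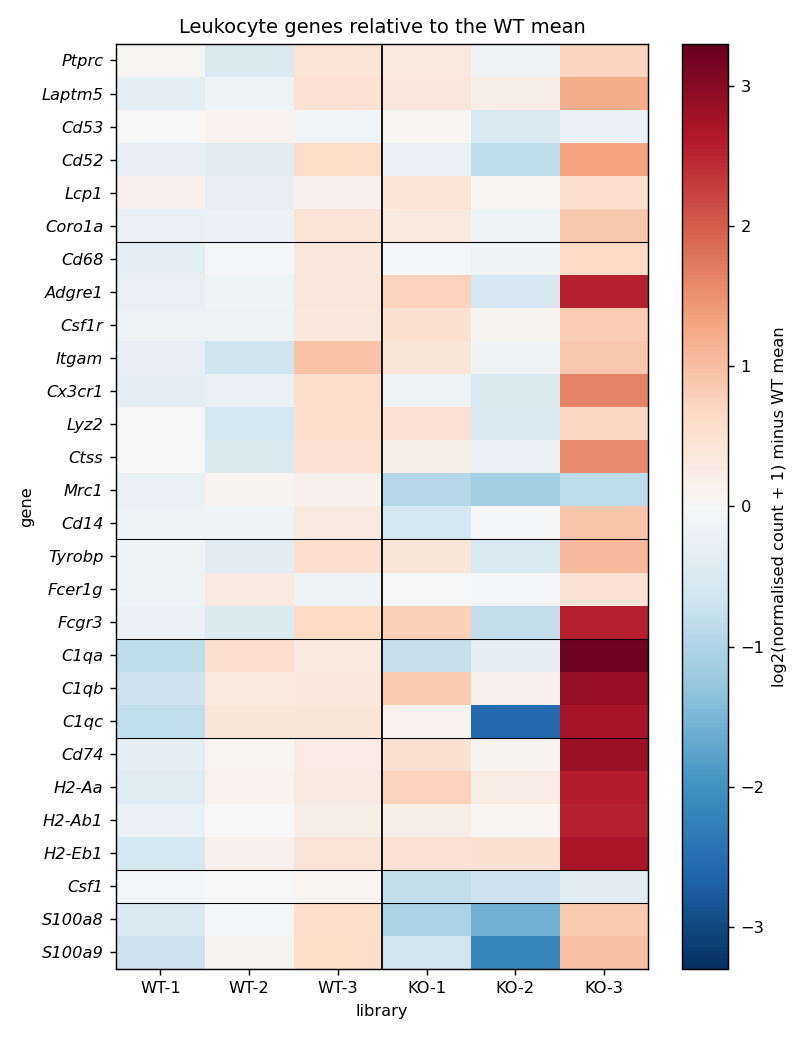
Difference of log2(normalised count + 1) from the mean of the 3 WT libraries (colour, red above and blue below) for the 28 genes tested (vertical axis, in order of role) in each library (horizontal axis). The KO-3 column is red except for Cd53, Mrc1 and Csf1, with C1qa at 3.21, while KO-1 and KO-2 are close to the WT libraries in most genes.

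The MHC class II genes carried a wide gap between KO-3 and the other libraries. Cd74, the invariant chain that escorts class II molecules to the endosome, had 348, 447 and 516 normalised counts in WT and 608, 461 and 3089 in KO. H2-Aa, the alpha chain of the I-A molecule, had 128, 183 and 207 in WT and 289, 200 and 1017 in KO. Its partner beta chain H2-Ab1 had 214, 249 and 287 in WT and 291, 260 and 1461 in KO. In all 3 genes KO-2 lay among the WT values, and KO-3 stood at 3.52 to 5.08 times the highest other library. H2-Eb1, a beta chain of the I-E family, had 111, 184 and 221 in WT and 229, 234 and 1074 in KO, so that its groups did not overlap, although they did under upper quartile scaling. None of the 4 passed the test, with log2 fold changes from 0.95 (SE 0.61) for H2-Ab1 to 1.22 (SE 0.60) for H2-Eb1 and limma adjusted p of 0.151 to 0.28. Without KO-3 the changes were 0.15 for H2-Ab1, 0.30 for Cd74, 0.50 for H2-Aa and 0.48 for H2-Eb1.

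Cd74 stood at 0.665 to 0.767 of the summed H2 chains in the other 5 libraries and at 0.87 in KO-3. Relative to Ptprc, the summed class II genes were at 7.37, 14.1 and 8.65 in WT, at 10.8 in KO-1 and 11.9 in KO-2, and at 38.8 in KO-3. The class II sum in KO-3 was thus 4.68 times the highest other library while Ptprc was 1.2 times its highest other value. The 3 H2 genes lie beside each other on mm10 chromosome 17, from 34263227 (H2-Ab1) to 34316674 (H2-Eb1), and are similar in sequence, so that reads could be shared among them.

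Class II genes share a regulatory module close to their start, in which an X box and a Y box hold a fixed distance, and at which the complex that recruits CIITA assembles. The 100 bases before the annotated start of H2-Aa and H2-Eb1 are shown because these genes moved together across the libraries and both hold the module (RefSeq, GRCm38.p6, the assembly of mm10). They lie at chr17:34287824-34287923 on the minus strand and at chr17:34305767-34305866 on the plus strand. Capitals mark, from left to right, the X1 box (searched as CTNGCAAC) and the Y box (searched as CTGATTGG), each on both strands.
H2-Aa: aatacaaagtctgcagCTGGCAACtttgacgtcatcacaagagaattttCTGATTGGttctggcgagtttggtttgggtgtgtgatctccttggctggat
H2-Eb1: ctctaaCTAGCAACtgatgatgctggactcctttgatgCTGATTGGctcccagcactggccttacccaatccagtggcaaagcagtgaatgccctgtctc
The boxes are 25 bases apart in H2-Aa and 24 in H2-Eb1, and the Y box begins 51 and 62 bases before the start. The Y box letters occur in 4.1% of the 32851 promoter windows of 300 bases and the X1 letters in 3.42%, the latter chosen after these windows had been read. Both occur together in 59 windows, or 0.18%. Of the 22 genes of the set with a window in this table, H2-Aa and H2-Eb1 are the 2 that hold both, and H2-Ab1, which has no window there, was not searched. Of 9 further genes of the class II pathway with a window, 0 hold both. Among them the Y box letters occur in H2-Oa alone and the X1 letters in H2-Ob alone. A match describes letters, not a bound site.

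Of 11 further genes of the class II pathway, 9 were tested, 2 rose and 0 fell, with a median log2 fold change of 0.026. The shares called over all genes (13.5% as higher and 8.58% as lower) are the background for this list and each related list below. Lgmn, an asparaginyl endopeptidase of the lysosome, had 4429, 2314 and 2233 normalised counts in WT and 6335, 8854 and 10586 in KO (log2 change 1.57 with SE 0.30, limma adjusted p = 0.0286). Ifi30, a lysosomal thiol reductase, had 507, 413 and 415 in WT and 578, 771 and 856 in KO (log2 change 0.71 with SE 0.16, limma adjusted p = 0.0305). The WT values of both lay under all their KO values, and KO-3 was at most 1.2 times the highest other library. Lgmn is also expressed by proximal tubule cells, and its highest WT value lay in WT-1, the WT library with the most proximal tubule marker RNA. The part of tubule RNA in the Lgmn values was not tested. Ciita, chosen after its values were seen, had 7.6, 2.97 and 8.23 in WT and 6.2, 3.25 and 49.9 in KO. H2-DMa, a chain of the peptide-loading chaperone and likewise chosen afterwards, averaged 30.2 ± 9.26 (SD, n = 3) in WT and had 29.2, 24.9 and 90.7 in KO. In these 2 of the 9 tested genes KO-3 was at least 2-fold above each other library, and neither passed (limma adjusted p = 0.572 and 0.534). Ciita reached the minimum mean count for testing only through KO-3, since its value in every other library lay under that minimum. The value that formed the gap of Ciita thus also brought it into the test, while H2-DMa lay above the minimum in every library.

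The remaining 7 tested genes of the list had no such gap. H2-Ob, a chain of the H2-O chaperone chosen after its values were seen, had 32.6, 46.5 and 42.8 in WT and 25.7, 23.8 and 27.2 in KO, lower in every KO library (limma adjusted p = 0.0982). H2-DMb1, likewise chosen, had 307, 398 and 345 in WT and 273, 233 and 376 in KO, with KO-3 inside the WT range.

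Class I genes did not share the gap between KO-3 and every other library, although KO-3 was their highest KO library. Of 10 genes of MHC class I presentation, 1 fell and 0 rose, with a median log2 fold change of -0.34. Tap2, a subunit of the peptide transporter, had 1095, 1240 and 1091 normalised counts in WT and 853, 809 and 976 in KO (log2 change -0.38 with SE 0.10, limma adjusted p = 0.0421). KO-3 was the highest library for 3 of the 10 and at least 2-fold above each other library for 0. Among the KO libraries alone, KO-3 was the highest for each of the 10. The median log2 difference from the WT mean was -0.028 for KO-3 and -0.45 for the mean of KO-1 and KO-2.

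The C1q chains had their high values in the same library at lower counts. C1qa had 10.9, 29.7 and 25.5 normalised counts in WT and 11.5, 16.2 and 196 in KO. C1qb had 11.9, 24.7 and 25.5 in WT and 36.3, 21.7 and 150 in KO. C1qc had 9.78, 23.7 and 23.9 in WT and 19.5, 2.17 and 124 in KO, where the value of KO-2 is 2 reads. KO-3 stood at 4.12 to 6.61 times the highest other library, while KO-1 and KO-2 lay within the WT range except for C1qb in KO-1 (above it) and C1qc in KO-2 (below it). The 3 genes lie together on chromosome 4 (mm10, 136880126 to 136898844). Their log2 fold changes were 0.71, 1.28 and 0.095 (limma adjusted p = 0.628, 0.203 and 0.959), and without KO-3 they were -0.54, 0.49 and -1.22. DESeq2 gave no adjusted p for C1qa.

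Among the genes of mononuclear phagocytes, KO-3 stood far above the other libraries in 3 and less far above the WT mean in 5, while Mrc1, described below, was lower there. Adgre1, which encodes the macrophage surface protein F4/80, had 10.9, 11.9 and 17.3 normalised counts in WT and 23, 8.66 and 80.5 in KO. Cx3cr1, the fractalkine receptor, had 26.1, 27.7 and 50.2 in WT and 29.2, 23.8 and 104 in KO. Ctss, the lysosomal protease cathepsin S, had 99.9, 71.3 and 139 in WT and 114, 85.5 and 298 in KO. KO-3 was 2.08 to 3.5 times the highest other library in these 3 genes, and the remaining KO libraries lay within or near the WT range. Csf1r, the receptor for CSF1 and IL34, had 191, 191 and 275 in WT and 308, 232 and 386 in KO (log2 change 0.48 with SE 0.22, limma adjusted p = 0.152). Lyz2, lysozyme M, had 555, 375 and 837 in WT and 773, 391 and 898 in KO, and may share reads with its near-identical neighbour Lyz1, so its level is uncertain. Csf1r and Lyz2 overlapped between the groups, with KO-3 the highest and KO-2 the lowest KO library in both. Itgam, the integrin chain CD11b, had 19.5, 14.8 and 46.9 in WT and 31.9, 21.7 and 45.4 in KO. Cd68, a lysosomal glycoprotein, had 23.9, 29.7 and 39.5 in WT and 29.2, 28.2 and 48.8 in KO. In these 4 genes KO-3 was at most 1.25 times the highest other library, which was WT-3 except for Csf1r. Cd14, the coreceptor for lipopolysaccharide, had 315, 314 and 430 in WT and 235, 332 and 658 in KO, with the lowest and the highest value both in KO. KO-3 was at 1.52 to 1.86 times the WT mean in Csf1r, Lyz2, Itgam, Cd68 and Cd14, and at 2.88 to 6.03 times in Adgre1, Cx3cr1 and Ctss.

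The adaptor and Fc receptor genes also had their highest values in KO-3. Tyrobp and Fcer1g encode small membrane adaptors that carry ITAM motifs and signal for Fc and related receptors. Tyrobp had 45.6, 38.6 and 73.2 normalised counts in WT and 67.3, 34.7 and 108 in KO. Fcer1g had 56.5, 77.2 and 56 in WT and 62, 59.5 and 87.3 in KO. Fcgr3, the low-affinity IgG receptor that pairs with Fcer1g, had 11.9, 9.9 and 22.2 in WT and 24.8, 7.58 and 86.2 in KO. The receptor was thus at 3.47 times the highest other library in KO-3, while its adaptor was at 1.13 times. Reads of Fcgr3 can be shared with related Fc receptor genes. None of the 3 passed (limma adjusted p = 0.463 to 0.705).

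Pan-leukocyte genes were at most 1.7 times the highest other library in KO-3. Ptprc, the leukocyte phosphatase CD45, had 109, 75.2 and 142 normalised counts in WT and 131, 97.4 and 171 in KO. Laptm5, a lysosomal membrane protein of blood cells, had 52.1, 59.4 and 92.2 in WT and 85, 76.9 and 156 in KO. Coro1a, the actin-binding protein coronin 1A, had 112, 113 and 174 in WT and 162, 115 and 244 in KO. For all 3 the KO values ran through the WT range with KO-3 above it. Lcp1, the actin bundler L-plastin, had 204, 153 and 203 in WT and 254, 193 and 273 in KO. Cd52, a small GPI-anchored glycoprotein, had 29.3, 27.7 and 54.3 in WT and 30.1, 19.5 and 89.6 in KO. Cd53, a tetraspanin, went another way, at 539, 587 and 509 in WT and 572, 381 and 475 in KO, and stood at 3.57 to 7.8 times Ptprc in the other 5 libraries and at 2.77 times in KO-3. The limma adjusted p of these 6 genes was 0.188 to 0.921.

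**Figure D3:**
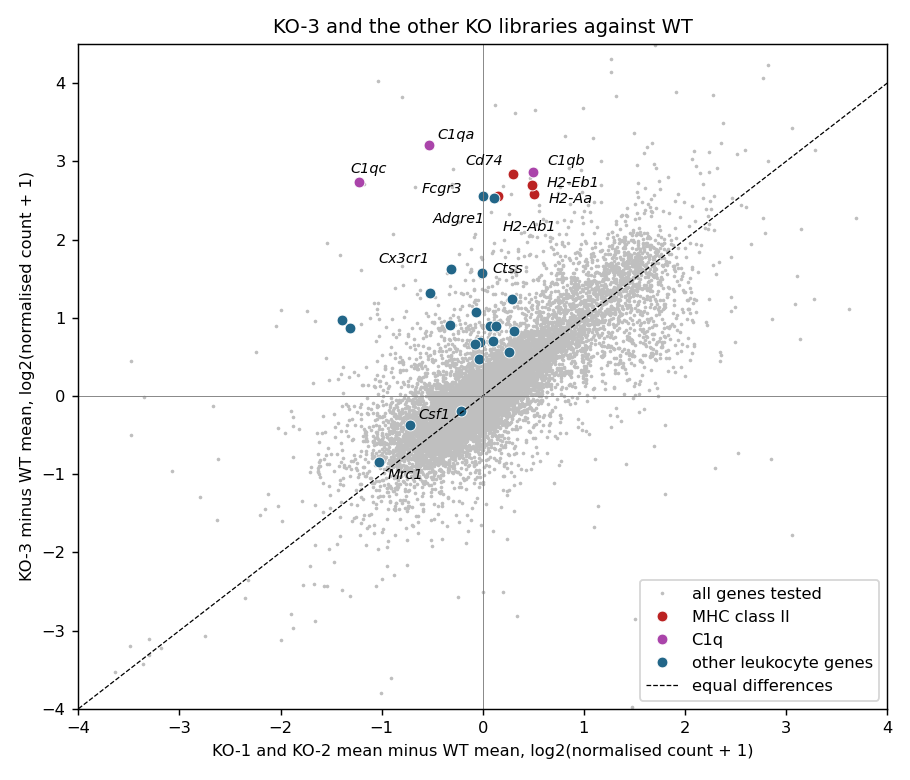
Difference from the WT mean on the log2(normalised count + 1) scale for KO-3 (vertical) and for the mean of KO-1 and KO-2 (horizontal), for all genes tested (grey) and the 28 leukocyte genes (coloured); 18 genes lie outside the axes and the dashed line marks equal differences. Class II (red) and C1q (purple) genes lie at 2.55 to 3.21 on the vertical axis and Mrc1 and Csf1 lie in the lower left.

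Mrc1 and Csf1 fell in KO with no overlap of the groups. Mrc1 encodes the mannose receptor CD206, a marker of tissue macrophages that some endothelial cells also carry (mm10 chromosome 2, 14229414 to 14332023). It had 1316, 1615 and 1681 normalised counts in WT and 801, 701 and 848 in KO. Its mean went from 1537 ± 195 to 783 ± 75.4 (SD, n = 3), a log2 change of -0.97 (with SE 0.12, limma adjusted p = 0.0286). Csf1, the macrophage growth factor (chromosome 3, 107741048 to 107760469), had 1391, 1469 and 1517 in WT and 852, 913 and 1131 in KO. Its mean went from 1459 ± 63.8 to 965 ± 146 (SD, n = 3), a log2 change of -0.60 (with SE 0.12, limma adjusted p = 0.0286). For each gene alone, the exact permutation p (two-sided) was 0.1, which is the lowest that 20 arrangements of the libraries can reach. Both calls were lost without WT-2 (adjusted p = 0.107 for both), WT-3 (0.106), KO-2 (0.109) and KO-3 (0.0673 for Mrc1 and 0.0578 for Csf1), and kept without WT-1 or KO-1. With all libraries, both were lost with the replicate number as a block (limma adjusted p = 0.0868 for both) and without the variance trend (0.0537 for Mrc1 and 0.0539 for Csf1). The log2 fold changes in these 6 fits were -1.08 to -0.89 for Mrc1 and -0.72 to -0.52 for Csf1.

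Mrc1 did not follow the other phagocyte genes. In counts not corrected for length it stood at 6.88, 8.46 and 6.11 times Csf1r in WT and at 2.6, 3.02 and 2.2 times in KO, so the ratio did not overlap between the groups. In KO-3, where Adgre1 was highest, Mrc1 was at 0.552 of its WT mean. Endothelial and mesangial markers fell in the same libraries: of 11 endothelial markers 8 fell and 0 rose (median log2 fold change -0.61), and of 9 mesangial markers 7 fell and 0 rose (median -0.79). On the log2 scale Mrc1 was lower relative to the endothelial marker mean by -0.36 in KO than in WT and relative to the mesangial mean by -0.23. For Csf1 these differences were 0.0038 and 0.13, with SDs over libraries of 0.096 to 0.262. With a covariate for tubule markers the log2 fold changes were -0.59 for Mrc1 and -0.60 for Csf1, and neither passed (limma adjusted p = 1). The part of the cell mixture in either result was not tested.

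**Figure D4:**
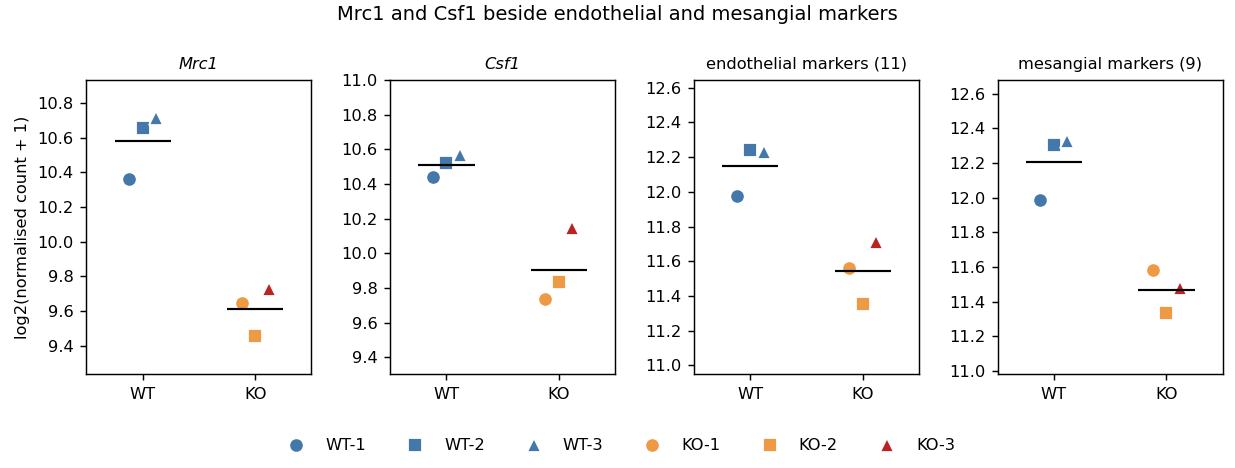
Level of Mrc1 and Csf1 and mean level of 11 endothelial and 9 mesangial markers, as log2(normalised count + 1), in each library (points) with the mean of each group (line); each panel spans the same range. In all 4 panels each KO point lies under every WT point.

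Ligands and receptors of the colony-stimulating and related growth factors were mixed. Of 8 further genes, 6 were tested, 2 fell and 0 rose. Flt3l, the ligand that sustains dendritic cell precursors, had 129, 149 and 145 normalised counts in WT and 90.4, 85.5 and 102 in KO (log2 change -0.60 with SE 0.15, limma adjusted p = 0.0336). Kitl, the ligand of the KIT receptor, had 1179, 1449 and 1249 in WT and 1033, 809 and 1017 in KO (log2 change -0.44 with SE 0.13, limma adjusted p = 0.0483). The groups were separate in both. Il34, the other ligand of CSF1R and chosen after its values were seen, had 449, 475 and 411 in WT and 445, 372 and 717 in KO. Its highest value again lay in KO-3 and its groups overlapped (limma adjusted p = 0.665). Per kilobase of merged exon the WT means were 276 normalised counts for Csf1 and 227 for Il34, so their levels were of one order, with Csf1r at 37.9 per kilobase. Csf2 and Csf3, also chosen after their values were seen, were at or near 0 in every library.

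Lymphocyte genes were barely present. The 4 members below the minimum had 0 to 9 reads in any library. Cd3e, a chain of the T cell receptor complex, had 2.17, 0.99 and 1.65 normalised counts in WT and 0, 1.08 and 5.67 in KO, and the 0 in KO-1 allows up to 2.66 normalised counts, the worth of 3 reads. Cd4, the coreceptor of helper T cells, had 1.09, 0 and 1.65 in WT and 2.66, 0 and 6.8 in KO. The counts of 0 of Cd4 allow up to 2.97 in WT-2 and 3.25 in KO-2. KO-3 was the highest library for both genes, at a handful of reads. Cd8a, a coreceptor chain of cytotoxic T cells, had 7.6, 1.98 and 1.65 in WT and 4.43, 8.66 and 6.8 in KO. Ms4a1, the B cell protein CD20, had 4.35, 3.96 and 6.58 in WT and 1.77, 2.17 and 10.2 in KO. Differences between the groups in these 4 genes were not detectable at this depth. Of 19 further T and NK cell genes 3 reached the minimum and 0 passed, and their summed level was 89 to 182 in WT and 55 to 156 in KO. Lck, a T cell kinase, and Cd247, the receptor zeta chain, had the highest means among the tested genes of that list, with 15.2, 15.8 and 30.5 in WT and 15.9, 11.9 and 27.2 in KO for Lck and means of 15.5 and 16.4 for Cd247. Of 11 further B and plasma cell genes 3 reached the minimum and 0 passed. Jchain, the joining chain of secreted immunoglobulin, was uneven, with 34.8, 63.3 and 13.2 in WT and 11.5, 8.66 and 122 in KO, and Cd79b, a chain of the B cell receptor complex, had a WT mean of 12.2 and a KO mean of 9.31.

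The granulocyte pair ran in parallel through the 6 libraries. S100a8 and S100a9, neighbours on chromosome 3, encode the subunits of calprotectin, abundant in neutrophils. S100a8 had 19.5, 26.7 and 42.8 normalised counts in WT and 13.3, 8.66 and 52.2 in KO. S100a9 had 31.5, 54.4 and 79 in WT and 32.8, 10.8 and 102 in KO. In both genes KO-3 was highest, WT-3 next and KO-2 lowest, and neither passed (log2 fold changes -0.59 and -0.60, limma adjusted p = 0.53 and 0.58). Of 13 further granulocyte and mast cell genes 2 were tested. Ltf, lactotransferrin, fell from 73.2 ± 10 to 33.4 ± 5.47 (SD, n = 3; log2 change -1.11 with SE 0.22, limma adjusted p = 0.0286). Unlike S100a8 and S100a9, it was lower in KO-3 (39.7) than in every WT library (61.9 to 81.2). Which cells carried this call was not tested. Ly6g, a defining gene of mouse neutrophils, was at 0 in all 6 libraries, which allows up to 2.47 to 3.4 normalised counts depending on the library. Cxcr2 was at 0.886 to 24.9, Retnlg at 3.25 to 18.9 and Mmp9 at 3.25 to 27.2, each highest in KO-3 or WT-3. Mpo, Elane, Camp and Ngp were at most at 2.17 in any library. Ly6g and these genes were chosen after their values were seen. Erythroid markers, a measure of blood in the sample, summed to 218 to 393 in WT and to 158 to 173 in KO, with KO-3 at 170.

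Other phagocyte, dendritic cell and signalling genes were described by lists. Of 22 further mononuclear phagocyte genes, 13 were tested and 0 passed, with a median log2 fold change of 0.22, and KO-3 was highest in 10 of the 13. Mertk, a receptor for dying cells that is not restricted to leukocytes, had the highest mean count of that list, at 3106 ± 312 in WT against 3620 ± 443 in KO (mean ± SD, n = 3; limma adjusted p = 0.224), followed by Mpeg1, which encodes a pore-forming protein of macrophages, with 94.5, 75.2 and 170 in WT and 167, 118 and 285 in KO (limma adjusted p = 0.202). Irf8, a transcription factor of phagocytes chosen after its values were seen, was at 121 ± 2.03 in WT and 164 ± 16.9 in KO with no overlap (mean ± SD, n = 3; limma adjusted p = 0.0582). Below the minimum, KO-3 was highest in Fcgr1 (29.5), Ms4a7 (23.8), Aif1 (22.7), Cd86 (15.9) and Trem2 (11.3). No other library was above 9.75 in these genes. Folr2 was highest in KO-1 (10.6) and Cd163 in WT-3 (2.47). Timd4 and Vsig4, genes of some resident macrophages, were at 0 in every library, which allows up to 2.47 to 3.4 normalised counts depending on the library. All these genes below the minimum were chosen after their values were seen. Of 10 dendritic cell genes 5 were tested and 0 passed, with a median log2 fold change of 1.23 and 4 of the 5 higher in KO. The other 5 were below the minimum and were not raised as a group. Their KO and WT means were 4.42 and 4.49 for Flt3, 1.72 and 2.12 for Xcr1, and 3.35 and 4.62 for Clec9a. They were 2.38 and 4.72 for Ccr7, and 2.63 and 2.01 for Siglech. Zbtb46, a transcription factor of dendritic cells that endothelial cells also express, averaged 239 ± 13.5 in WT and 178 ± 36 in KO (SD, n = 3), and Cd209a, a lectin, had 10.9, 7.92 and 13.2 in WT and 16.8, 19.5 and 68 in KO (limma adjusted p = 0.0881 and 0.113). The groups did not overlap in either gene. They were also separate, with KO higher, in Itgax, the integrin chain CD11c, with 9.78, 4.95 and 13.2 in WT and 15.9, 14.1 and 36.3 in KO, and in Batf3, a transcription factor of dendritic cells, with 7.6, 5.94 and 4.94 in WT and 10.6, 23.8 and 14.7 in KO (limma adjusted p = 0.142 and 0.0781). Itgax and Batf3 were chosen after their values were seen. Their WT means (9.3 and 6.16) lay under the minimum of 10, which they reached only through the KO libraries. The same holds for Clec10a, at a mean of 4.82 in WT and 17.4 in KO, so the filter favoured higher KO values in this list. Groups were separate in 3 tested genes as higher and 1 as lower, against 23.2% and 21.9% of all genes.

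Of 12 genes that signal downstream of ITAM receptors, 10 were tested, 1 rose and 1 fell. Ptpn6, the phosphatase SHP-1, rose from 107 ± 24.4 to 231 ± 11.3 and Inpp5d, the phosphatase SHIP-1, fell from 292 ± 47.9 to 175 ± 11.3 (SD, n = 3; log2 fold changes 1.13 and -0.73, limma adjusted p = 0.0286 for both). Ptpn6 is also expressed in epithelial cells, and tubule markers rose in the same libraries. The part of tubule RNA in the Ptpn6 values was not tested. Among 18 genes of leukocyte integrins and cytoskeleton, all tested, 3 fell and 0 rose, where 8.58% of all genes fell, with a median log2 fold change of -0.073. Itga4, an integrin alpha chain, fell from 1197 ± 144 to 709 ± 68.2, and Fermt3, the kindlin of blood cells, from 275 ± 42.4 to 159 ± 27.6 (SD, n = 3; log2 fold changes -0.75 and -0.78, limma adjusted p = 0.0286 and 0.0304). Hcls1, a cortactin relative, fell from 201 ± 15.6 to 135 ± 27.9 (SD, n = 3; limma adjusted p = 0.0491). The mean log2 level was higher in KO in 9 of the 18 genes, and which cells carried the 3 calls was not tested. Parvg, the parvin of blood cells and a relative of the deleted gene, chosen after its values were seen, had 8.69, 14.8 and 13.2 in WT and 11.5, 6.5 and 22.7 in KO.

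Of 8 genes that leukocytes bind on endothelium, 7 were tested, 3 fell and 0 rose. Icam2 fell from 1989 ± 228 to 1233 ± 248, Cd34 from 4635 ± 421 to 3292 ± 300 and Pecam1 from 5932 ± 600 to 4099 ± 472 (SD, n = 3; limma adjusted p = 0.0304, 0.031 and 0.0332). These are general endothelial genes and were lower together with the endothelial markers given above. The part of the cell mixture in these 3 calls was not tested. Vcam1, an adhesion receptor of activated vessels and of some kidney epithelium, had 299, 232 and 148 in WT and 392, 211 and 933 in KO, and Icam1 had 196, 217 and 198 in WT and 265, 179 and 501 in KO. Both were chosen after their values were seen, had their highest value in KO-3, and did not pass (limma adjusted p = 0.2 and 0.304).

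Markers listed for cells outside the glomerulus, and those of podocytes, were looked at for the library with the high class II level. Of 10 genes listed for interstitial fibroblasts 6 were tested, and KO-3 was highest in 4 of them. Col3a1, a fibrillar collagen, had 11.9, 43.6 and 63.4 normalised counts in WT and 16.8, 17.3 and 139 in KO, and Col1a1 had 21.7, 31.7 and 32.1 in WT and 13.3, 18.4 and 90.7 in KO. Both genes were chosen after their values were seen. The list had 2 calls, both lower in KO, where 8.58% of all genes fell. Pdgfra, a growth factor receptor, fell from 1343 ± 150 to 617 ± 53.1 with KO-3 at 654, and Pi16, a peptidase inhibitor, fell from 5475 ± 434 to 2773 ± 131 with KO-3 at 2923 (SD, n = 3; limma adjusted p = 0.0262 for both). The whole list summed to 9259 to 11166 in WT and to 5292 to 7607 in KO, most of it Pi16 and Col1a2, while the defining genes Lum and Dpt were at most at 3.4 in any library. Per kilobase of merged exon the WT means were 860 for Pi16, 266 for Col1a2 and 134 for Pdgfra. The other genes of the list were at most at 9.24. Whether Pi16, Col1a2 and Pdgfra report cells outside the glomerulus here was not tested. Adipocyte markers summed to at most 7.94. Urothelial markers (6 genes, none with a mean of 10) summed to 49.9 in KO-3 and to 7.41 to 19.5 in the others, and Krt20, a keratin of urothelium chosen after its values were seen, was at 34 in KO-3 and at 0 to 2.66 elsewhere. Podocyte markers (12 genes) summed to 179007 in KO-3, the lowest of the 6 libraries, against 194948 to 309393 in the others. The part of these cells in the KO-3 values of the leukocyte genes was not tested.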

How the data were processed

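The deposited table holds normalised counts, a signal in which, per the file headers, featureCounts output was scaled in each library. The submitters' processing notes name DESeq2 2.11.40.6, featureCounts 1.6.4, HISAT2 2.1, cutadapt 1.16.5, bcl2fastq 2.19 and the build mm10. No source used here gives the strand setting or the annotation release, so overlapping genes and near-identical copies may share reads. Identifiers were named from RefSeq (25275 of 27179; 25293 together with GENCODE M21).

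Every value (100% at a tolerance of 0.01) divided evenly by the worth of 1 read in its library, which returned whole reads for the count tests. Floors are 3 reads and cover counting error only. The main test was limma 3.58.1 (R 4.3.3) with a variance trend on log2(normalised count + 1) for genes with a mean of at least 10, Benjamini-Hochberg adjusted over 13946 genes, two-sided at 0.05, with genotype as the only term. Changes on this scale are understated for low genes. Titles gave each sample's group and number. Because no label states separate animals, p-values measure only the spread between these samples. Within a group, libraries differed beyond sampling noise (chi-square of at least 22.1 per degree of freedom).

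The genes and lists were chosen with earlier results of these data known. From each related list the text names genes that passed (at most 3), otherwise the 2 with the highest mean, and marks others as chosen afterwards. Alternatives were edgeR 4.0.16, DESeq2 1.42.0, other pseudocounts, minima, scalings and variance models, a replicate block, a tubule covariate and leaving out each library. Each test was checked on simulated counts.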

Additional observations from a re-analysis of the deposited data

How the results depend on the processing

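The 2 calls among the leukocyte genes (Mrc1 and Csf1) and 2668 to 3810 calls over all genes were found with other pseudocounts, filters, TMM or upper quartile scaling, a robust prior, edgeR and DESeq2 (3 leukocyte genes in DESeq2). Both calls were lost, and the count over all genes went to 0, 1 and 0, with the replicate block, in limma without trend and with a covariate for proximal tubule markers, where the count of leukocyte genes was 0 each time. At an unadjusted p under 0.05 these fits gave 7, 2 and 2 leukocyte genes and 4284, 5305 and 425 genes in all. The labels do not say whether the replicate numbers pair the libraries. Over all genes tested, deviations from the group means correlated at -0.23, -0.19 and -0.013 for the same numbers. For different numbers the correlations were -0.2 to 0.34. With so few libraries these values cannot decide whether libraries of the same number were prepared together. With the tubule covariate the log2 changes of Cd53 (0.021), Cd14 (-0.084), S100a8 (0.037) and S100a9 (0.63) changed sign, none past the threshold. The cause was not tested.

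Leaving out a library, in limma or in edgeR (the latter added after seeing the data), gave 0 to 4295 calls over all genes in limma and 0 to 4308 in edgeR (1206 without KO-1), 0 to 2 among the leukocyte genes, and 3 to 11 leukocyte genes without overlap of the groups. The highest of these, 11 without KO-2 and 10 without WT-3, held 9 and 8 that were higher in KO, where 25.1% and 25.8% of all genes tested were higher without overlap (49.8% and 50.4% in either direction). Log2 changes ran over 0 in limma for C1qa (-0.54 to 1.45), C1qc (-1.22 to 1.43), Cd14 (-0.32 to 0.42), Cd52 (-0.53 to 0.55), Cd68 (-0.081 to 0.35), Ctss (-0.012 to 0.88), Cx3cr1 (-0.32 to 0.72), Fcer1g (-0.040 to 0.28), Lyz2 (-0.074 to 0.58), S100a9 (-1.39 to 0.17) and Tyrobp (-0.063 to 0.74). Csf1 also missed the threshold in edgeR without KO-1 (adjusted p = 0.0506). With 3 libraries a group, a difference carried by 1 library cannot be told apart from one between genotypes.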
